A study of Homo sapiens with 30 samples.

Results

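The genes described are 8 dual-specificity MAP kinase phosphatases (MKPs): DUSP1, DUSP4, DUSP5, DUSP6, DUSP7, DUSP8, DUSP10 and DUSP16. They were taken by gene symbol from a count table of 60664 genes, of which 40609 carried a symbol, and all 8 were found. The rule used symbols and no measured value. Their raw counts per library were lowest for DUSP8, from 34 to 1532, and highest for DUSP16, from 657 to 6015, and all 8 passed the filter on low counts in every comparison.

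MAP kinases are switched on when an upstream kinase adds phosphate to a threonine and a tyrosine of the same loop, and MKPs switch them off by removing both. Many MKP genes are themselves transcribed in response to MAP kinase activity, so that they act as feedback inhibitors. Arsenite is an oxidative stressor known to activate the stress MAP kinases JNK and p38 as well as ERK. By textbook grouping, DUSP1, DUSP4 and DUSP5 are nuclear enzymes, with DUSP1 acting on JNK, p38 and ERK and DUSP5 selective for ERK. DUSP6 and DUSP7 are cytoplasmic and selective for ERK, while DUSP8, DUSP10 and DUSP16 act mainly on JNK and p38.

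The series compared a pair of HEK293 (human embryonic kidney) lines that express GFP-tagged TIA1a, either wild-type (WT) or bearing the Welander distal myopathy mutation (WDM). TIA1 binds RNA and is a core protein of stress granules. Each genotype was a single Flp-In T-REx derivative line with a tetracycline-controlled transgene. Cytosol RNA came from untreated cells, cells given tetracycline (Tet), and cells given tetracycline plus 0.5 mM NaAsO2 for 60 min, in both lines, giving 6 groups and 18 libraries. Granule RNA was pulled down through GFP from a high-speed pellet of cells given tetracycline, with or without arsenite, giving 4 groups and 12 libraries. Every group had 3 libraries, and because the labels do not say that replicates were separate cultures, p-values measure only the spread between libraries. All granule cells and all arsenite-treated cells had received tetracycline, the arsenite effect was therefore taken against tetracycline alone, and RNA pulled down from a line without GFP-TIA1 was not analysed here.

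Library totals ran from 5906167 to 27419145 counts. TIA1 itself had 0 or 1 counts in each library, 3 counts in all, so expression of the transgene could not be checked. Of the fixed markers in cytosol, all 5 epithelial genes were above a mean of 1 CPM (counts scaled to the library total). So were 4 of 5 kidney progenitor genes, which summed to 7.295 to 25 CPM, and 3 of 4 fibroblast genes, which summed to 5.65 to 10.2 CPM. Blood markers summed to at most 0.262 CPM and endothelial markers to at most 1.60 CPM. Vimentin, a mesenchymal gene, ran from 630 to 841 CPM beside the epithelial keratin KRT8 at 91.6 to 177 CPM. Summed nuclear RNAs (NEAT1, MALAT1, KCNQ1OT1, MEG3) stood at 508 CPM in WT tetracycline cytosol replicate 1 and at 211 and 203 CPM in the other replicates of that group. They stood at 534 to 587 CPM in WT arsenite cytosol, at 329 to 649 CPM in WDM tetracycline cytosol and at 557 to 860 CPM in WDM arsenite cytosol. In granule libraries they reached 2243 to 3566 CPM. Their part in the results below was not tested.

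The 8 transcripts differed widely in abundance. Compared per length, as counts per merged exon length and library total (RPKM), untreated WT cytosol held DUSP16 at 10.7 ± 0.322 (SD, n = 3), DUSP5 at 9.62 ± 1.26 and DUSP1 at 9.12 ± 0.758. Neither DUSP16 and DUSP5 nor DUSP5 and DUSP1 separated beyond their SDs, whereas DUSP16 and DUSP1 did. DUSP6 followed at 3.50 ± 0.587, DUSP4 at 2.36 ± 0.0655, DUSP10 at 1.97 ± 0.213, DUSP7 at 1.37 ± 0.0991 and DUSP8 at 1.09 ± 0.0950, each below the one before by more than the SDs. With arsenite the order in WT cytosol was led by DUSP1 at 30.8 ± 0.963 RPKM, above DUSP5 at 16.6 ± 0.900 and DUSP16 at 16.0 ± 1.61, which overlapped. DUSP6 at 6.44 ± 0.876 and DUSP10 at 5.31 ± 0.340 RPKM overlapped as well, as did DUSP4 at 2.52 ± 0.119 and DUSP8 at 2.35 ± 0.111, and DUSP7 was last at 1.94 ± 0.231. In arsenite-treated WDM granules DUSP16 led at 28.2 ± 2.41 RPKM, with DUSP1 at 24.9 ± 4.07, DUSP8 at 10.3 ± 1.90 and DUSP5 at 8.88 ± 0.308. DUSP8, the least abundant of the 8 in untreated cytosol, was thus above all but DUSP16 and DUSP1 in that group, although DUSP8 and DUSP5 overlapped there. Using the longest annotated transcript as the length changed the order of some members in 7 of the 10 groups. With that length DUSP7, at 2.31, was above DUSP10, at 2.15, in untreated WT cytosol. In WT arsenite cytosol DUSP8, at 2.42, was then last, below DUSP7 at 3.28.

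Arsenite raised several of these transcripts in cytosol within 60 min. DUSP1 rose about equally in both lines, by 3.05-fold in WT and 3.14-fold in WDM. DUSP8, DUSP10 and DUSP16, the phosphatases of JNK and p38, rose in both lines by 1.30-fold to 1.88-fold. DUSP5 and DUSP6 passed the test in WDM, and DUSP4 and DUSP7 in neither line. In edgeR's quasi-likelihood test with Benjamini-Hochberg adjustment, 4 of 8 members were called higher in WT (adjusted p under 0.05), where 13.7% of all 16670 genes were called higher, and 6 of 8 in WDM, where 14.1% were. No member was called lower. The median log2 fold change of the 8 was 0.33 in WT against -0.02 over all genes, and 0.63 in WDM against -0.00. With libraries scaled by total counts alone, 76.5% of the genes called in WT were higher, against 47.2% with TMM factors, and the median of all genes moved from -0.02 to 0.11. In WDM the share moved from 48.8% to 66.6% and the median from -0.00 to 0.08. In these bulk samples, fewer cells with a transcript and less of it per cell cannot be told apart.

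**Figure D1:**
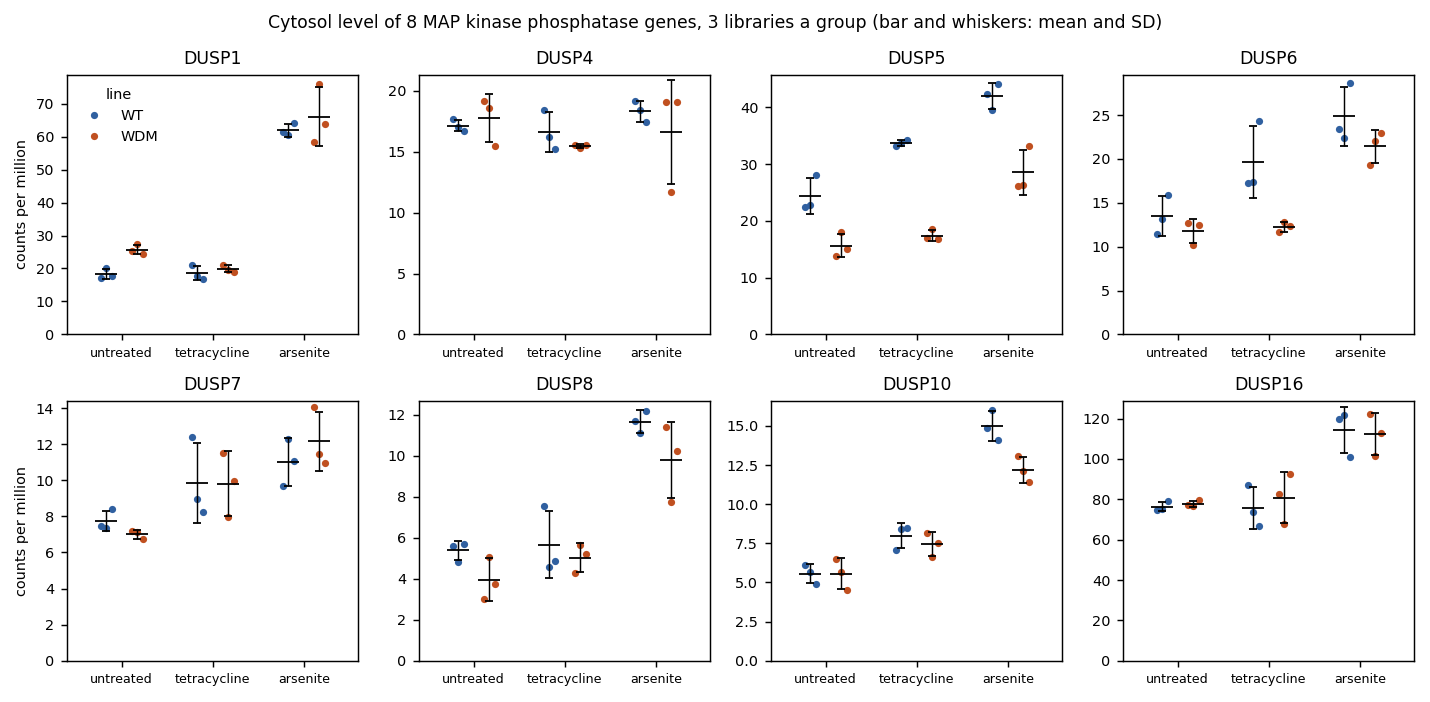
Level of each gene in cytosol in CPM (vertical axis, starting at 0, a scale of its own in each panel) by treatment (horizontal axis), with WT in blue and WDM in orange; points are libraries, and bars and whiskers the mean and SD of 3. DUSP1 libraries with arsenite lie between 58.3 and 75.8, all above those without, while DUSP4 stays between 11.7 and 19.2 throughout.

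DUSP1 (ENSG00000120129) is a 4-exon gene on the minus strand of chromosome 5 (GRCh38 172768096 to 172771195), a classic immediate-early gene. In WT cytosol it stood at 21.0, 17.7 and 16.9 CPM with tetracycline and at 61.3, 60.4 and 64.1 CPM with arsenite. In WDM it stood at 21.1, 19.6 and 19.1 CPM and at 58.3, 75.8 and 63.9 CPM. No arsenite library of either line came near a library without arsenite. The log2 fold change was 1.61 (SE 0.109, adjusted p 6.5e-09) in WT, and 1.57% of all genes had a higher one. It was 1.65 (SE 0.109, adjusted p 4.03e-09) in WDM, where 1.26% had a higher one. The difference between the lines in the arsenite effect was 0.04 (95% interval -0.28 to 0.36, adjusted p 1).

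DUSP4 (ENSG00000120875, chromosome 8, 29333064 to 29350684, minus strand, 4 exons), a nuclear phosphatase close to DUSP1 in sequence, was the one nuclear member with no call in cytosol. It stood at 18.4, 16.2 and 15.2 CPM in WT with tetracycline and at 19.1, 18.4 and 17.4 CPM with arsenite. The WDM libraries held 15.6, 15.3 and 15.5 CPM and at 19.0, 11.7 and 19.1 CPM, so the arsenite libraries lay on both sides of the others. The log2 fold changes were 0.01 in WT (95% interval -0.27 to 0.29, adjusted p 0.974) and 0.01 in WDM (-0.28 to 0.29, adjusted p 0.975), the latter 0.20 (adjusted p 0.168) without WDM arsenite replicate 2.

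DUSP5 (ENSG00000138166, chromosome 10, 110497907 to 110511533, plus strand, 4 exons) is the nuclear phosphatase selective for ERK. In WT cytosol it stood at 33.2, 33.8 and 34.3 CPM with tetracycline and at 42.3, 39.5 and 44.03 CPM with arsenite. WDM values were 16.9, 18.6 and 16.7 CPM and at 26.2, 26.3 and 33.2 CPM. The CPM values separated by treatment in both lines, but TMM scaling factors were 0.921 to 0.993 in the WT tetracycline libraries and 1.04 to 1.05 in the WT arsenite ones. On the TMM scale the log2 fold change was 0.18 in WT (95% interval -0.06 to 0.42, adjusted p 0.25) and 0.62 in WDM (SE 0.122, adjusted p 0.00116). Scaled by total counts alone, the WT value was 0.31 and passed the test (adjusted p 0.045). The effects differed between lines by 0.45 (95% interval 0.10 to 0.80), a difference that did not pass after adjustment (unadjusted p 0.0152, adjusted p 1).

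DUSP6 (ENSG00000139318, chromosome 12, 89347235 to 89352501, minus strand, 3 exons) is the main cytoplasmic phosphatase of ERK and a widely used readout of ERK activity. In WT cytosol it stood at 17.3, 17.3 and 24.3 CPM with tetracycline and at 23.4, 22.4 and 28.7 CPM with arsenite, and these ranges overlapped. In WDM it stood at 11.7, 12.8 and 12.4 CPM and at 19.4, 22.0 and 22.9 CPM, with no overlap. The log2 fold change was 0.20 in WT (95% interval -0.12 to 0.52, adjusted p 0.327) and 0.71 in WDM (SE 0.159, adjusted p 0.00304). The difference between lines was 0.51 (95% interval 0.05 to 0.97, unadjusted p 0.0306, adjusted p 1). An antisense gene (ENSG00000274021) covers 28.6% of the DUSP6 exon length and had 80 counts over the 30 libraries, against 7520 for DUSP6.

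DUSP7 (ENSG00000164086, chromosome 3, 52048919 to 52056571, minus strand, 3 exons) is the paralog of DUSP6 that shares its preference for ERK. It stood at 12.4, 8.95 and 8.27 CPM in WT with tetracycline and at 9.68, 12.3 and 11.1 CPM with arsenite. The WDM values were 11.5, 7.95 and 9.96 CPM and at 14.0, 11.4 and 11.0 CPM. The groups overlapped in both lines, and the log2 fold changes were 0.02 (95% interval -0.29 to 0.34, adjusted p 0.915) in WT and 0.23 (-0.08 to 0.54, adjusted p 0.249) in WDM. The overlap in WT came from tetracycline replicate 1, at 12.4 CPM, the library with the raised nuclear RNAs. Without that library the WT value was 0.19 (adjusted p 0.347).

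DUSP8 (ENSG00000184545, chromosome 11, 1554051 to 1572271, minus strand, 7 exons), a phosphatase of JNK and p38, stood at 7.53, 4.60 and 4.86 CPM in WT cytosol with tetracycline and at 11.7, 11.1 and 12.2 CPM with arsenite. In WDM it stood at 4.26, 5.64 and 5.19 CPM and at 11.4, 7.76 and 10.2 CPM. Arsenite libraries were above the others in both lines. The log2 fold change was 0.91 (SE 0.184, adjusted p 0.00141) in WT and 0.85 (SE 0.189, adjusted p 0.00286) in WDM. The highest WT tetracycline value was in replicate 1, the library with the raised nuclear RNAs, and without it the WT value was 1.13 (adjusted p 0.000143).

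DUSP10 (ENSG00000143507, chromosome 1, 221701424 to 221742089, minus strand, 4 exons), which acts on JNK and p38, stood at 7.09, 8.39 and 8.51 CPM in WT with tetracycline and at 14.9, 16.0 and 14.1 CPM with arsenite. WDM libraries held 8.15, 6.66 and 7.52 CPM and at 13.1, 12.1 and 11.4 CPM. Neither line had overlap between treatments. The log2 fold change was 0.77 (SE 0.136, adjusted p 0.000433) in WT and 0.63 (SE 0.139, adjusted p 0.00271) in WDM.

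DUSP16 (ENSG00000111266, chromosome 12, 12473282 to 12562863, minus strand, 7 exons), a phosphatase of JNK that shuttles between nucleus and cytoplasm, changed least among the called members. It stood at 87.2, 73.6 and 66.7 CPM in WT with tetracycline and at 119.9, 121.9 and 101.1 CPM with arsenite. In WDM it stood at 82.4, 67.8 and 92.5 CPM and at 122.3, 101.5 and 113.0 CPM. The arsenite libraries were again higher throughout. The log2 fold change was 0.46 (SE 0.0971, adjusted p 0.00194) in WT and 0.38 (SE 0.0969, adjusted p 0.00701) in WDM, the latter 0.28 (adjusted p 0.0544) without WDM tetracycline replicate 2. The WDM call was also lost in a fit of only the groups compared, at 0.38 (adjusted p 0.0586). Between the lines, the arsenite effect in cytosol was called different for 0 of the 8 members by edgeR and by DESeq2, with 2 members (DUSP5 and DUSP6) at an unadjusted p under 0.05, and for 0.00% of all genes.

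**Figure D2:**
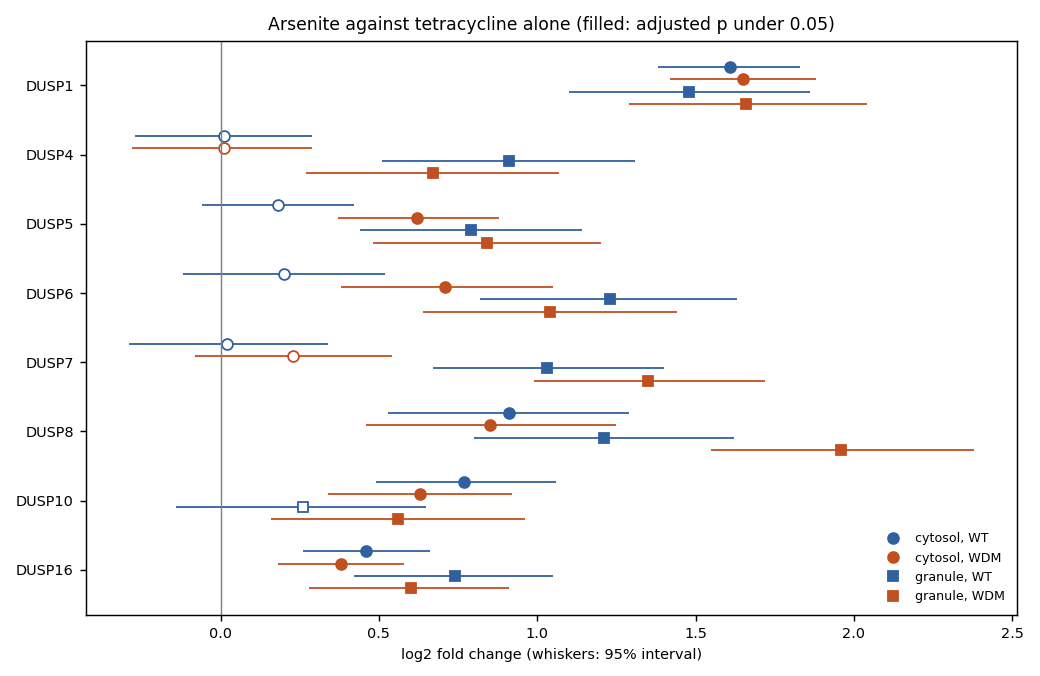
Log2 fold change of arsenite over tetracycline alone (horizontal axis) for each gene (vertical axis), in cytosol (circles) and granules (squares), WT in blue and WDM in orange, with 95% intervals; filled symbols have an edgeR adjusted p under 0.05. DUSP1 lies between 1.48 and 1.66 in all 4 settings, and DUSP4 and DUSP7 are near 0 in cytosol but between 0.67 and 1.35 in granules.

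Promoter sequence is shown for DUSP1 and DUSP8, which rose in both lines. Among the 6 members with an entry in the promoter table, they alone held a full cyclic AMP response element, TGACGTCA. DUSP10 and DUSP16 also rose in both lines and had an entry, but lacked this element. Each run below is the 250 bases before the annotated start, from RefSeq on GRCh38.p14, read on the minus strand. Capitals mark TGACGTCA, the shorter TGACG or its reverse complement CGTCA, and a TATA motif.

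DUSP1, chr5:172771196-172771445: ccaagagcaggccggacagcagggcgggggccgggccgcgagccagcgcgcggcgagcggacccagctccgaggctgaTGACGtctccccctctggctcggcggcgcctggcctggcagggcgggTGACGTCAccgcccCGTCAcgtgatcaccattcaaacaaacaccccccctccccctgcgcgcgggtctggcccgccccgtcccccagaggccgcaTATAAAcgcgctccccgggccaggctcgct

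DUSP8, chr11:1572272-1572521: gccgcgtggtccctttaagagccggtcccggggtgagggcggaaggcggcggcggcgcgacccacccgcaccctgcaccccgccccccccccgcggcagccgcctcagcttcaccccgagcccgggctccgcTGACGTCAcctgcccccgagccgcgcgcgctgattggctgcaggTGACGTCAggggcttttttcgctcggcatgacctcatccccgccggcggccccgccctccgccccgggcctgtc

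DUSP1 had one TGACGTCA, 125 bases before its start, and DUSP8 had a pair of them, 118 and 74 bases before its start. On either strand, 1.77% of 27303 promoters of the same length held this motif. The shorter TGACG lies within TGACGTCA on both strands. It was found in 21.7% of promoters and, among the 6 members, likewise in DUSP1 and DUSP8 alone. DUSP1 also had TATAAA 30 bases before its start (11.1% of promoters) and the E-box CACGTG at 108 bases (6.49%), which overlaps a CGTCA. None of the 6 held the AP-1 motif TGANTCA (6.6% of promoters), the EGR motif GCGTGGGCG (0.711%) or a CArG box (1.14%) in this window. A motif match is a description of the letters, and no factor's binding was measured.

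AU-rich elements, repeats of ATTTA in the 3′ UTR, are known to destabilise many immediate-early mRNAs, and TIA1 is among the proteins known to bind such sequences. In the GENCODE v44 canonical transcripts, DUSP1 had 4 copies of ATTTA in a 3′ UTR of 666 bases, and 9.23% of 1961 UTRs within 20% of that length had as many. DUSP1 also had 2 copies of the longer TTATTTATT, which 4.54% of those UTRs held at least once. DUSP8 had 4 copies of ATTTA in 2467 bases and 1 of the longer motif, DUSP10 had 3 in 988 bases and DUSP16 had 8 in 3551 bases. Against UTRs of like length, 63.4%, 34.1% and 49.9% had as many. DUSP4, not called in cytosol, had 6 copies in 3962 bases and 1 of the longer motif, and 69.1% of UTRs of like length had as many copies of ATTTA. DUSP6 had 1 copy, and DUSP5 and DUSP7 had 0. The stretches of 30 bases with overlapping or neighbouring copies are shown for the members that rose in both lines, on the minus strand with ATTTA in capitals. A stretch of 30 bases with 2 copies was also found in DUSP4 and is not shown.

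DUSP1, chr5:172768641-172768670: ggctggtccttATTTATTTAacttcacccg

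DUSP8, chr11:1556372-1556401: ttcgattttttATTTATTTAagctgttcat

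DUSP10, chr1:221701501-221701530: aagaaaaaaaaATTTATTTAaaaatatttt

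DUSP16, chr12:12473583-12473612: gaagttacATTTAagaaaATTTAtaagaaa

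Other genes of the pathway were counted in the same cytosol comparison. Of 14 immediate-early targets of MAP kinases, 11 rose in WT and 13 in WDM, and none fell, with median log2 fold changes of 1.12 and 1.63. EGR1, a transcription factor induced through ERK, rose by 6.07 (adjusted p 1.51e-13) in WT and 6.73 (adjusted p 2.76e-14) in WDM on the log2 scale. IER2, another immediate-early gene, went from 31.2 ± 3.64 to 117 ± 5.67 CPM in WT (SD, n = 3) and from 36.0 ± 2.35 to 132 ± 10.4 CPM in WDM. Its log2 fold changes were 1.77 and 1.79, close to those of DUSP1. Of 7 other feedback inhibitors of the ERK pathway, the Sprouty and SPRED proteins and ERRFI1, 3 rose in WT and 4 in WDM and none fell, with medians of 0.16 and 0.46. SPRY4 rose by 0.88 in WT (adjusted p 0.000952) and 1.20 in WDM (adjusted p 0.000113), and SPRED3 by 1.54 and 1.46 from under 1 CPM.

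Kinases of the cascade were counted next. Of 10 MAP kinases, 1 rose and 1 fell in WT and 1 rose in WDM. MAPK10, the JNK isoform of neurons, rose by 1.00 in WT (adjusted p 0.0109) and 0.65 in WDM (adjusted p 0.0483) on the log2 scale. Of 7 MAP2 kinases, 2 rose in WT and 1 in WDM. MAP2K4, which activates JNK and p38, rose by 0.22 (adjusted p 0.0223) and 0.20 (adjusted p 0.0338), and MAP2K5 rose by 0.65 in WT (adjusted p 0.0193). Of 19 MAP3 kinases, 3 rose in each line and 1 fell in WT. MAP3K5, the stress-activated kinase ASK1, rose by 0.33 (adjusted p 0.00486) and 0.30 (adjusted p 0.00945), and TAOK3 rose by 0.40 in WDM (adjusted p 0.00807). Of 10 kinases downstream of MAP kinases, 1 rose and 1 fell in each line. RPS6KA5, the stress-responsive kinase MSK1, rose by 0.39 and 0.35 (adjusted p 0.0132 and 0.022). Among all genes tested, calls in the higher direction made up 13.7% in WT and 14.1% in WDM and calls in the lower direction 15.3% and 14.8%, so nothing particular to these kinase lists is read from their counts.

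The remaining dual-specificity phosphatases did not rise in cytosol. DUSP9, an MKP selective for ERK, had a log2 fold change of -0.21 in WT (adjusted p 0.308) and fell by 0.61 in WDM (adjusted p 0.00751). DUSP2 did not pass the filter on low counts. Of 9 atypical dual-specificity phosphatases tested, which lack the MAP kinase docking domain of MKPs, 1 fell in WT and 2 fell in WDM, with medians of -0.17 and -0.14, where 15.3% and 14.8% of all genes were called lower. DUSP19 fell by 0.40 in WT (adjusted p 0.0406) and DUSP11 by 0.31 in WDM (adjusted p 0.0349). Beside these, KCNQ1OT1, a nuclear RNA, rose by 1.37 in both lines. Of 13 mitochondrial mRNAs, 6 fell in WT and 4 fell in WDM, with medians of -0.44 and -0.25. The part of either in the cytosol results was not tested.

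Likeness was described for each member called in cytosol for arsenite against tetracycline. The measure was Pearson's r of log2 (CPM + 0.5) over the 18 cytosol libraries, among 11807 genes. These libraries share treatments and lines, so that genes with a common response score high whatever its origin. DUSP1 was most like IER2 (r = 0.991), CCNL1 (0.980) and FOSB (0.979), and FOSB is an AP-1 subunit. DUSP16 was most like SAMD4A (0.971), CREB5 (0.969) and DNM3 (0.963), and DUSP10 most like WDR70 (0.959), PELI1 (0.955) and ABI1 (0.954). DUSP8 was most like PKD1P4 (0.943), SPATA2 (0.942) and NPIPB6 (0.940), of which PKD1P4 and NPIPB6 belong to families of near-identical copies. DUSP5 was most like ZNF668 (0.944), ZNF689 (0.943) and SH2D4A (0.923), and DUSP6 most like THAP1 (0.927), PLK2 (0.921) and RBM22 (0.917). Within the family the closest pairs were DUSP1 with DUSP16 (0.88) and DUSP5 with DUSP6 (0.87), and DUSP4 had no r above 0.28 with another member.

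Tetracycline alone was compared with no treatment, using the same tetracycline libraries that serve as controls for arsenite. In WT, DUSP5, DUSP6 and DUSP10 were called higher than in untreated cells, 3 of 8 members where 2.93% of all genes were called higher. DUSP5 went from 22.4, 22.7 and 28.1 CPM untreated to the 33.2 to 34.3 CPM given above, a log2 fold change of 0.51 (SE 0.12, adjusted p 0.0195). DUSP6 went from 11.4, 13.2 and 15.9 CPM to 17.3 to 24.3 CPM (log2 fold change 0.58, SE 0.162, adjusted p 0.04). DUSP10 went from 6.11, 5.68 and 4.92 CPM to 7.09 to 8.51 CPM (0.56, SE 0.153, adjusted p 0.0373). None of the 3 groups overlapped with its control, but all 3 calls were lost without WT untreated replicate 1 or 2 or WT tetracycline replicate 2 or 3, and in a fit of these 6 libraries alone. In WDM 0 of 8 members were called by edgeR and by DESeq2, where edgeR called 6.30% of all genes. DUSP1, DUSP7 and DUSP10 had an unadjusted p under 0.05 there, and DUSP1 had the smallest adjusted p, 0.0631, at a log2 fold change of -0.35. The tetracycline effect was called different between lines for 0 of the 8 by either tool, where edgeR called 0.0180% of all genes, and DUSP1 and DUSP6 had an unadjusted p under 0.05.

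Set against untreated cells, tetracycline plus arsenite raised 7 of the 8 members in each line, where 15.2% of all genes were called higher in WT and 19.1% in WDM. The exception was DUSP4, at 0.00 (95% interval -0.28 to 0.29) in WT and -0.17 (-0.45 to 0.11) in WDM on the log2 scale. These comparisons share their arsenite libraries with the ones above. The largest log2 fold changes in WT were those of DUSP1 at 1.66 (SE 0.111, adjusted p 5.06e-09) and DUSP10 at 1.34 (SE 0.146, adjusted p 4.83e-06). In WDM they were those of DUSP1 at 1.30 (SE 0.106, adjusted p 1.2e-07) and DUSP8 at 1.24 (SE 0.192, adjusted p 7.23e-05). DUSP7 was called here in both lines, at 0.41 (adjusted p 0.049) in WT and 0.72 (adjusted p 0.000986) in WDM, from 7.49, 7.37 and 8.40 CPM in untreated WT and 7.18, 7.14 and 6.74 CPM in untreated WDM. The WT call of DUSP7 was lost with DESeq2 and without any 1 of 5 libraries.

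DUSP5 was the member that differed most between the lines, lower in WDM in all 5 settings tested. In untreated cytosol it stood at 22.4, 22.7 and 28.1 CPM in WT and at 13.9, 18.0 and 15.1 CPM in WDM, a log2 difference of -0.68 (SE 0.125, adjusted p 0.00105). With tetracycline the difference was -1.01 (SE 0.122, adjusted p 6.22e-06) and with arsenite -0.57 (SE 0.116, adjusted p 0.0021). In granules it was -1.06 (SE 0.18, adjusted p 0.00024) without arsenite and -1.01 (SE 0.169, adjusted p 0.000185) with it. The groups of the lines did not overlap in any of the 5 settings.

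Few other members differed by line. DUSP1 was higher in WDM in untreated cytosol, at 25.4, 27.3 and 24.5 CPM against 17.2, 20.1 and 17.8 CPM in WT, a log2 difference of 0.45 (SE 0.113, adjusted p 0.0126). That call was lost without WT untreated replicate 1 or 3 or WDM untreated replicate 2 (adjusted p up to 0.0678), and summed nuclear RNAs were also higher there, at 620 to 680 CPM in WDM and 330 to 402 CPM in WT. DUSP6 was lower in WDM cytosol with tetracycline, a log2 difference of -0.73 (SE 0.161, adjusted p 0.00377). Members called numbered 2 of 8 in untreated cytosol (9.78% of all genes), 2 with tetracycline (12.6%) and 1 with arsenite (10.4%). In granules DUSP5 alone was called, without arsenite (5.55% of all genes) and with it (7.95%). At these shares a count of 1 or 2 of 8 is no result about the family.

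In the granule fraction arsenite raised nearly all of the 8 members. In WT 7 of 8 members were called higher, where 16.5% of 18366 genes were, and in WDM 8 of 8, where 18.7% were. Median log2 fold changes of the 8 were 0.97 in WT against -0.03 over all genes and 0.94 in WDM against 0.01. A level in granules is a share of the pulled-down RNA, so it moves with the cytosol level and with what else is pulled down. The 13 mitochondrial mRNAs, transcribed inside that organelle, summed to 1932 to 4201 CPM without arsenite and 521 to 1406 CPM with it in WT granules. In WDM granules they summed to 1157 to 3890 CPM and 973 to 1615 CPM. Of the 13, 2 were called lower in WT and 1 in WDM, with medians of -1.79 and -1.85. Their part in the granule results was not tested.

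DUSP8 had the largest change in WDM granules. It stood at 13.7, 12.4 and 11.6 CPM without arsenite and at 57.5, 40.4 and 55.9 CPM with it, a log2 fold change of 1.96 (SE 0.204, adjusted p 1.76e-07). In WT granules it went from 23.4, 18.1 and 14.3 CPM to 32.2, 57.9 and 36.9 CPM, a log2 fold change of 1.21 (SE 0.2, adjusted p 8.04e-05). No library with arsenite fell into the range without it. The lines differed in this effect by 0.75 (95% interval 0.17 to 1.33), which did not pass after adjustment (unadjusted p 0.0127, adjusted p 0.284). For the granule arsenite effect, 0 of the 8 members differed between lines by edgeR or DESeq2, DUSP8 alone had an unadjusted p under 0.05, and edgeR called 0.00% of all genes. DUSP1 rose by 1.48 (SE 0.184, adjusted p 3.66e-06) in WT granules, from 19.1, 15.1 and 15.7 CPM to 41.8, 42.4 and 51.9 CPM. It rose by 1.66 (SE 0.183, adjusted p 3.43e-07) in WDM granules, from 13.5, 16.3 and 15.6 CPM to 41.3, 57.4 and 51.5 CPM.

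DUSP7 had no call in cytosol for arsenite against tetracycline, though tetracycline plus arsenite was called against untreated cells. In WT granules DUSP7 went from 13.9, 9.76 and 10.5 CPM to 22.0, 21.6 and 24.2 CPM. In WDM granules it went from 9.52, 9.22 and 10.5 CPM to 25.1, 26.1 and 27.0 CPM. Its log2 fold changes were 1.03 (SE 0.179, adjusted p 0.000136) and 1.35 (SE 0.178, adjusted p 3.11e-06). DUSP4, called in neither of these cytosol comparisons, went from 11.7, 11.1 and 8.58 CPM to 17.0, 19.6 and 20.8 CPM in WT granules (log2 fold change 0.91, adjusted p 0.00106). In WDM granules it went from 9.32, 9.15 and 9.73 CPM to 16.0, 11.9 and 19.2 CPM (0.67, adjusted p 0.00814), a call lost without WDM arsenite granule replicate 3 (0.48, adjusted p 0.0867). Both genes thus had higher shares of granule RNA with arsenite in every library.

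The other ERK phosphatases rose in granules of both lines. DUSP6 rose by 1.23 (adjusted p 6.12e-05) in WT and 1.04 (adjusted p 0.000205) in WDM, and DUSP5 by 0.79 (adjusted p 0.00115) and 0.84 (adjusted p 0.000567). DUSP16 rose by 0.74 (adjusted p 0.00079) and 0.60 (adjusted p 0.00333). DUSP10 was the weakest, at 0.26 in WT (95% interval -0.14 to 0.65, adjusted p 0.318) and 0.56 in WDM (adjusted p 0.0263), with granule levels of 9.14, 8.82 and 13.0 CPM against 10.0, 14.8 and 12.6 CPM in WT. Its WDM call was lost without WDM tetracycline granule replicate 2 or 3 or WDM arsenite granule replicate 1, at adjusted p up to 0.108. Of the Sprouty and SPRED group with ERRFI1, 6 of 7 were called higher in granules of each line, with medians of 0.95 and 1.02.

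**Figure D3:**
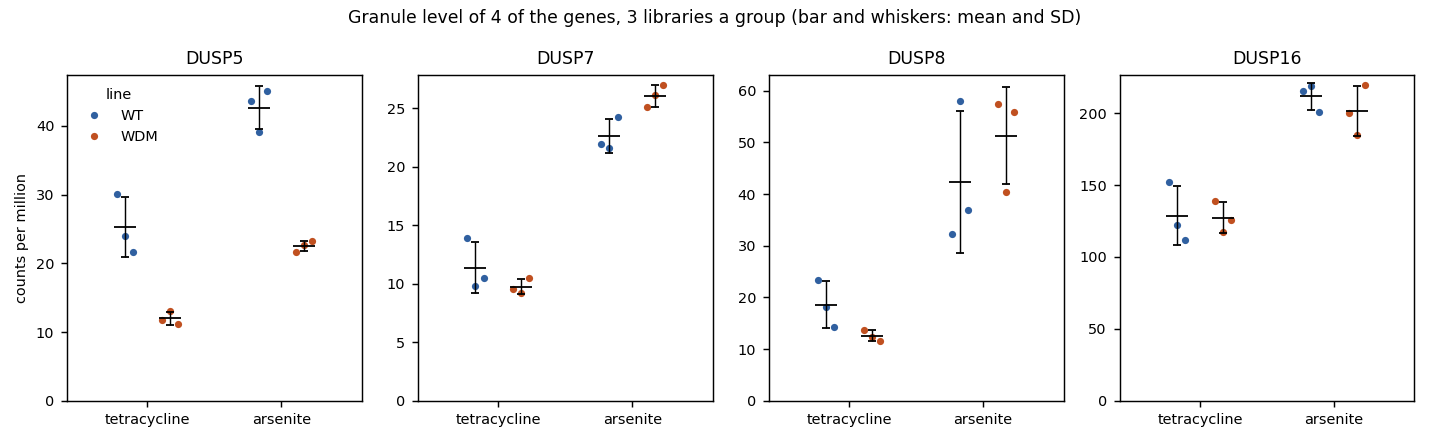
Level in the granule fraction in CPM (vertical axis, starting at 0, a scale of its own in each panel) of DUSP5, DUSP7, DUSP8 and DUSP16 without and with arsenite (horizontal axis), WT in blue and WDM in orange; points are libraries, and bars and whiskers the mean and SD of 3. DUSP5 is lower in WDM than in WT under both treatments, and arsenite libraries lie above the others in all 4 panels within each line.

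Granule and cytosol shares were then compared within each line and treatment. DUSP8 and DUSP16 were higher in granules in all 4 comparisons, and DUSP7 with arsenite. DUSP4, DUSP5 and DUSP6 were lower in granules of both lines without arsenite, and DUSP5 and DUSP6 also in WDM with it. Between 70.5% and 75.7% of all genes were called in each comparison, so that a call by itself says little about a member. Members called numbered 5 of 8 in WT with tetracycline (75.7% of all genes), 6 in WDM with tetracycline (71.1%), 4 in WT with arsenite (70.5%) and 6 in WDM with arsenite (72.0%). Summed nuclear RNAs were 2243 to 3566 CPM in granules and 203 to 860 CPM in cytosol of the same cells, and their part in these values was not tested.

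DUSP8 had the largest enrichment of the 8. Without arsenite it was 1.64 (SE 0.209, adjusted p 4.68e-08) in WT on the log2 scale, where 18.9% of all genes had a higher value. It was 1.30 (SE 0.215, adjusted p 4.59e-06) in WDM, where 19.7% had a higher one. With arsenite it was 1.85 (SE 0.191, adjusted p 1.27e-09) in WT, where 3.96% of all genes had a higher value. In WDM it was 2.32 (SE 0.193, adjusted p 1.43e-11), a 5-fold share that 1.12% of genes exceeded. In CPM, arsenite-treated WDM cells held DUSP8 at 40.4 to 57.5 in granules and 7.76 to 11.4 in cytosol. The DUSP8 transcript has the highest G+C content of the 8, 66.3%, against a median of 49.1% over 19550 transcripts, and DUSP16 has 47.4%.

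DUSP16, the most abundant member in granules, had an enrichment of 0.65 to 0.89 in the 4 comparisons (adjusted p from 5.64e-07 to 6.79e-05). Between 24% and 35.2% of all genes had a higher value there. DUSP7 had enrichments of 0.14 (adjusted p 0.477) in WT and -0.00 (adjusted p 0.994) in WDM without arsenite, and of 1.04 in both lines with it (adjusted p 1.71e-06 and 1.41e-06). DUSP6 was the most depleted in WT, at -1.09 (SE 0.184, adjusted p 4.98e-06) in WT and -0.66 (SE 0.189, adjusted p 0.00292) in WDM without arsenite. DUSP4 was at -0.73 (adjusted p 0.000461) and -0.71 (adjusted p 0.00068), and DUSP5 at -0.48 (adjusted p 0.00284) and -0.54 (adjusted p 0.00191). With arsenite DUSP5 was at 0.03 (adjusted p 0.852) in WT and -0.40 (adjusted p 0.0093) in WDM. DUSP6 was then at -0.18 (adjusted p 0.35) in WT and -0.42 (adjusted p 0.0276) in WDM. Without arsenite DUSP1 was at -0.21 (adjusted p 0.239) in WT and -0.39 (adjusted p 0.0333) in WDM. Its change of enrichment with arsenite was called in neither line, at -0.23 (adjusted p 0.439) and -0.07 (adjusted p 0.846). With arsenite DUSP1 was lower in granules than in cytosol, at -0.44 (adjusted p 0.0094) in WT and -0.46 (adjusted p 0.00683) in WDM. Those calls were lost without a filter on low counts, and without WT arsenite granule replicate 2 in WT, or WDM arsenite granule replicate 1 or cytosol replicate 2 in WDM (adjusted p up to 0.0859 and 0.0852). In WDM with arsenite, 6 calls became 3 without granule replicate 1. DUSP10 was called in none of the 4, with values from -0.27 to 0.36.

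**Figure D4:**
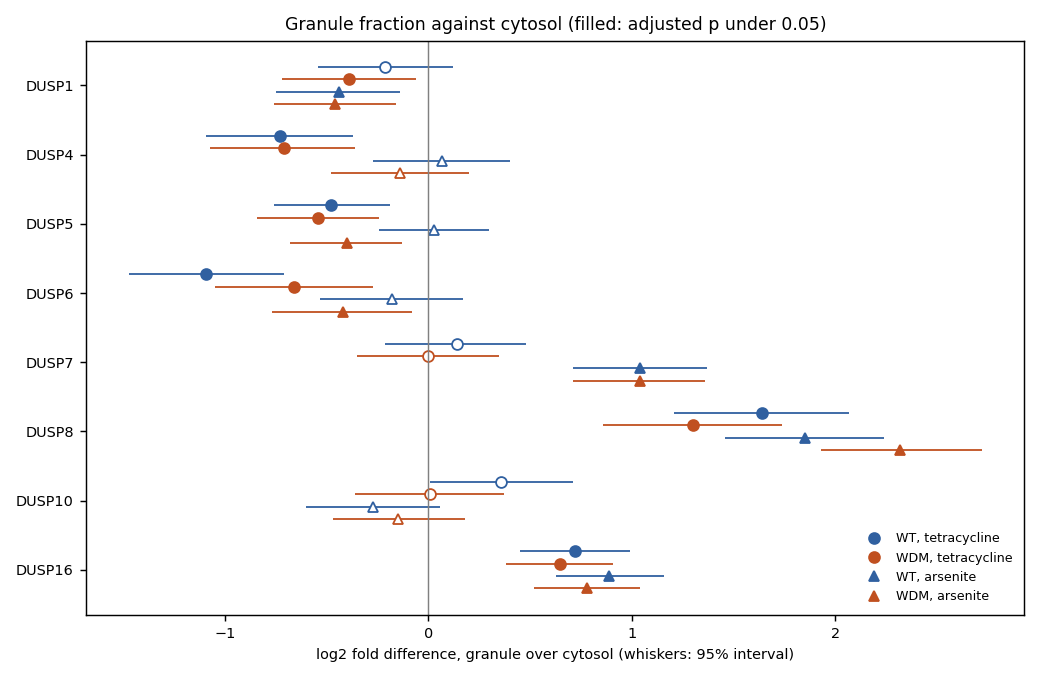
Log2 difference of granule over cytosol (horizontal axis) for each gene (vertical axis), without arsenite (circles) and with it (triangles), WT in blue and WDM in orange, with 95% intervals; filled symbols have an edgeR adjusted p under 0.05. DUSP8 and DUSP16 lie right of 0 in all 4 comparisons, DUSP8 reaching 2.32, and DUSP7 moves to 1.04 with arsenite in both lines.

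The change of granule enrichment with arsenite was tested as an interaction. In WT 5 members were called, where 31.4% of all genes were, 4 of them upward, where 12.0% of genes were called upward, and DUSP10 downward. They were DUSP6 at 0.91 (SE 0.25, adjusted p 0.00654), DUSP7 at 0.91 (SE 0.235, adjusted p 0.00432), DUSP4 at 0.80 (SE 0.24, adjusted p 0.0122), DUSP5 at 0.51 (SE 0.193, adjusted p 0.044) and DUSP10 at -0.63 (SE 0.235, adjusted p 0.0414). The calls of DUSP5 and DUSP10 were each lost under 11 alternatives, with adjusted p-values up to 0.134 and 0.431, and without WT granule tetracycline replicate 3 only 2 calls were left. In WDM 2 members were called, both upward, where 24.1% of all genes were called and 7.66% upward. DUSP7 changed by 1.04 (SE 0.233, adjusted p 0.00197) and DUSP8 by 1.03 (SE 0.287, adjusted p 0.00997). DUSP8 in WT had 0.21 (95% interval -0.36 to 0.79, adjusted p 0.597). Whether the change itself differed between the lines was not tested. The median change over all genes was -0.21 in WT and -0.17 in WDM, against 0.36 and 0.18 for the 8 members, and DUSP7 was called in both lines.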

How the data were processed

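The deposited table holds raw counts per gene for each of the 30 libraries, made by the authors without pooling. Per the submitters' processing notes, Trimmomatic, STAR, Picard and featureCounts were used with GRCh38, and per the labels' protocols the libraries were stranded total RNA after rRNA removal. Versions, annotation release and strand setting are not given in the sources used here. Of the table's genes, 60463 were found in GENCODE release 44 on the same chromosome, 56693 of them with the same span, including all 8 members.

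Tests used the edgeR package (4.0.16, under R 4.3.3; filterByExpr with minimum count 10 and total 15, TMM factors, robust quasi-likelihood F-test), with Benjamini-Hochberg adjustment over all genes. The 18 cytosol libraries (16670 genes), the 12 granule libraries (18366 genes) and the 24 tetracycline-treated libraries for fraction comparisons (18141 genes) were fitted separately with group means. CPM and RPKM were computed from the deposited counts by total count, with errors as SD over 3 libraries. The procedure was tested on simulated data. No pair of replicates differed by as little as sampling noise (chi-square per degree of freedom from 1.63).

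Same-numbered libraries deviated together, with every pair's correlation over 0.1, in 2 of 17 pairs of groups: WDM granules with against without arsenite, and WDM granule against cytosol with arsenite. In these 2 pairs of groups the pairing comes from the data alone, and a replicate block changed no member's call in either. Every library correlated best with its own number in granule against cytosol with arsenite, in WT and in WDM. That was not so in WDM granules with against without arsenite. Alternatives were RLE factors (DESeq2's size-factor method), library size alone, no low-count filter, the replicate block, each library left out, only the groups compared, DESeq2 1.42.0 and another gene length.

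The members, the gene lists and the tests were chosen with earlier results of these data known. Named are the 8 members, the 2 genes of each list with the smallest p among those called in cytosol arsenite, and the 3 genes most like each called member. One gene that this rule names is not reported here. Promoters came from RefSeq (GRCh38.p14), which had entries for 6 of the 8, and UTRs from GENCODE. Protein sequences were not used here. Counting error alone limits rare transcripts: a count of 0 allows up to 3.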

Additional observations from a re-analysis of the deposited data

Results flagged for a closer look

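A total of 7 changes of granule enrichment with arsenite were singled out because the arsenite effect in granules differed from that in cytosol of the same line by a test of the difference itself (edgeR interaction, adjusted p under 0.05). In WT these were DUSP4 at 0.80, DUSP5 at 0.51, DUSP6 at 0.91, DUSP7 at 0.91 and DUSP10 at -0.63 on the log2 scale. In WDM they were DUSP7 at 1.04 and DUSP8 at 1.03. Of all genes, 31.4% were called for this difference in WT and 24.1% in WDM. The WDM count of 2 of 8 members is near that share and is no result about the family. DUSP7 is the member named in both lines, while DUSP5 and DUSP10 in WT lost their calls under 11 alternatives each. Groups held 3 libraries, so single libraries were not screened as outliers.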

How the results depend on the processing

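Of 176 tests of members, 77 were called, 61 calls held under every alternative, 16 were lost under at least 1, and none changed sign. Of 99 tests not called, 6 were called under at least 1 alternative. Counts of members stayed within 1.5 times in 17 of 22 comparisons. For tetracycline in WT, 3 calls became 0 with only the groups compared and were 0 to 3 with a library left out. For tetracycline in WDM, 0 became 1 with library size alone, 2 with the replicate block (DUSP1 and DUSP7) and 0 to 1 with a library left out. WDM against WT in untreated cytosol had 1 to 2 with a library left out. Granule against cytosol in WDM with arsenite fell from 6 to 3 with no low-count filter and ranged from 3 to 6 with a library left out. The enrichment change in WT went from 5 to 3 with only the groups compared and ranged from 2 to 5 with a library left out. The cause was not tested.

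Over all genes, fitting only the groups compared moved calls from 4832 to 2734 (cytosol arsenite, WT), 4805 to 1920 (WDM), 886 to 220 (tetracycline, WT), 1631 to 5463 (WDM against WT, untreated) and 2099 to 852 (with tetracycline). The tetracycline-by-line calls, 3, became 14 without filter, 6 with the block and 11 with DESeq2, and the granule arsenite-by-line calls, 0, became 44 without filter. Library size alone moved the share of higher calls from 55.1% to 44.1% (tetracycline, WT), 47.1% to 64.3% (tetracycline plus arsenite against untreated, WT) and 51.7% to 66.0% (granule WDM against WT, arsenite). Without filter it moved from 38.2% to 58.3% and from 31.7% to 43.0% for the enrichment change in WT and WDM. It also moved without filter from 42.8% to 60.5% (WDM against WT, untreated) and 47.1% to 59.2% (tetracycline plus arsenite against untreated, WT). Fitting only the groups compared moved the share from 48.8% to 60.3% (cytosol arsenite, WDM) and 55.1% to 44.5% (tetracycline, WT). With DESeq2 the share moved from 55.1% to 65.2% (tetracycline, WT). Same-numbered libraries correlated from -0.29 to 0.65. The lowest DUSP8 library held 34 counts.

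Leaving out 1 library also moved the calls over all genes by over 1.5 times. Cytosol arsenite calls in WT were 2590 and 2439 without WT tetracycline replicates 2 and 3, and 3003 and 2631 without WT arsenite replicates 1 and 2. In WDM they were 2492 without tetracycline replicate 2 and 2920 without arsenite replicate 1. Tetracycline calls in WT ranged from 189 (without untreated replicate 1) to 1765 (without tetracycline replicate 1), and each of the 6 libraries moved them that far. In WDM they moved from 1050 to as few as 422 (without untreated replicate 2), and tetracycline replicate 2 was the only library of the 6 that did not move them that far. WDM against WT fell to as few as 930 in untreated cytosol (without WT replicate 3, with WT replicate 1 the only library of 6 not moving it that far). With tetracycline it was 4571, 1391 and 1263 without WT replicates 1, 2 and 3 and 1209 without WDM replicate 3, and with arsenite it went from 1726 to 1094 without WT replicate 3. Granule arsenite calls in WT went from 5620 to 3157 without tetracycline replicate 3. Granule WDM against WT went from 1019 to 615 without WT replicate 2 and to 589 and 571 without WDM replicates 2 and 3 before arsenite. With arsenite it went from 1460 to 569 and 947 without WT replicates 1 and 3, and to 838 and 847 without WDM replicates 1 and 3. The tetracycline-by-line calls ranged from 1 to 4 and the granule arsenite-by-line calls from 0 to 5.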

Other observations

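Most of the atypical dual-specificity phosphatases had a lower share in granules than in cytosol. Of 9 tested, 7 were called lower in WT without arsenite and 6 in each of the other 3 comparisons of granule with cytosol, with medians of -1.11, -1.10, -0.79 and -0.87 against 0.07, 0.02, 0.05 and 0.06 over all genes. DUSP9 had a log2 difference of granule over cytosol of -1.73 in WT and -1.35 in WDM before arsenite, and of -1.62 in WT and -1.26 in WDM under arsenite, each called. Of 10 MAP kinases, 5 in WT and 6 in WDM were called higher in granules with arsenite and 2 lower in each line. Of 7 Sprouty, SPRED and ERRFI1 genes, 6 in WT and 5 in WDM were called higher in granules with arsenite and 1 lower. Of all genes, 36.2% and 35.3% were called lower in granules in WT and WDM before arsenite and 35.5% and 35.7% with it, and 35.0% and 36.3% were called higher with arsenite.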
